A study of Mus musculus with 8 samples.

Results

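Fringe, Numb and Deltex proteins adjust how cells receive a Notch signal, and RNA counts of their genes were compared between ovarian cancer cells with and without an active Notch3 fragment. The genes were 10 symbols of the 23284 in the count tables, taken by name: the fringe glycosyltransferases Lfng, Mfng and Rfng, the fucosyltransferase gene Pofut1, the adaptor genes Numb and Numbl, and the Deltex genes Dtx1, Dtx2, Dtx3 and Dtx4. Each of the 8 tables had a row for all 10 symbols, although Mfng and Dtx1 had few or no counts. Polyadenylated RNA was sequenced from ID8 IP2 cells, a mouse ovarian surface epithelial cancer line. This line derives from ID8 by passage in C57BL/6 mice, and it also carried a luciferase-mCherry lentivirus. Notch3IC lines were infected with a pCCL lentivirus for an HA-tagged intracellular domain of Notch3 (codons 1664 to 2318) linked to GFP by an IRES, and Control lines with empty pCCL, so GFP as well as Notch3IC separated the groups. Each of Sets 1 to 4 was a separate infection that gave 1 Control line and 1 Notch3IC line, cultured in the same medium, and 1 library was made of each line. By the study's methods, later testing pointed to mycoplasma in all ID8 IP2 lines, which would cover both groups.

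Library totals ran from 19013578 to 28208072 counts for Control (median 24255880) and from 15524262 to 27107061 for Notch3IC (median 24162245.5). Normalized counts are counts scaled to a common library size, and a gene was called when its log2 fold change was at least 1 in size and its adjusted p in edgeR's quasi-likelihood test was under 0.1. Across the 12430 genes with enough counts to be tested, 3.4% were called higher in Notch3IC and 0.74% lower, and the median log2 fold change was -0.01.

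Notch receptors are carried to the cell surface after sugars have been attached to the epidermal growth factor repeats of their outer part. Pofut1 adds fucose there, and a fringe enzyme can extend that fucose with N-acetylglucosamine, which changes the response to Delta and Jagged ligands. Numb and Numb-like are endocytic adaptors known as inhibitors of Notch, whereas Deltex proteins are RING ubiquitin ligases, several of which bind the ankyrin repeats of the intracellular domain. The expressed Notch3 fragment holds the intracellular domain and none of the repeats that carry fucose.

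The labels were checked on Notch3 and on genes that Notch is known to switch on. Notch3 had 39, 34, 74 and 53 counts in Control Sets 1 to 4 and 3864, 319, 10026 and 6915 in Notch3IC Sets 1 to 4, and these counts do not separate the insert from the endogenous gene. Every Notch3IC library lay above every Control library, but Set 2 rose far less, its within-set log2 ratio being 3.51 where Sets 1, 3 and 4 had 6.79, 7.01 and 7.10. Hey1, a transcriptional repressor, had a within-set log2 ratio of 4.40 in Set 2 where Sets 1, 3 and 4 had 7.08, 7.55 and 7.86. Nrarp, a feedback inhibitor of Notch, had a log2 ratio of 4.46 in Set 2 and of 8.16, 7.47 and 7.12 in the other sets, and 79.4% of its exon bases overlap Gm38287 on the opposite strand. Heyl, another repressor of the Hey family, had 1927, 147, 7460 and 4628 counts in Notch3IC Sets 1 to 4 and no more than 2 in Control. Set 2 was the lowest of the 4 Notch3IC libraries for each of these genes, so the fold changes of the 8 modulator genes tested are also given without it. Set 1 stood apart in another way, since libraries of the same group differed most when one of them came from Set 1 (chi-square per degree of freedom of 107 to 124, where sampling noise alone gives about 1), against 12.7 to 82.9 for the other pairs.

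Among the 10 genes, 8 had enough counts to be tested. Dtx4 was the 1 gene called higher in Notch3IC (3.4% of all genes tested were), and 0 were called lower (0.74% of all) with condition as the only term, where edgeR's unadjusted p was under 0.05 for 3 genes in the higher direction (Numbl, Dtx3, Dtx4) and 2 in the lower (Lfng, Dtx2), limits that 11.8% and 6.65% of all genes tested passed. The median log2 fold change of the 8 genes was 0.05. DESeq2 called Dtx4 higher and Lfng lower, among 5.07% and 1.38% of the 13958 genes for which it gave an adjusted p. When the matched set was added to the fit as a block, 5.19% of all genes tested were called higher and 2.53% lower, and Lfng joined Dtx4 among the called genes. The plot of counts by library shows the 8 genes, with Lfng lower in 3 of 4 sets and Dtx4 higher in 4 of 4.

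**Figure D1:**
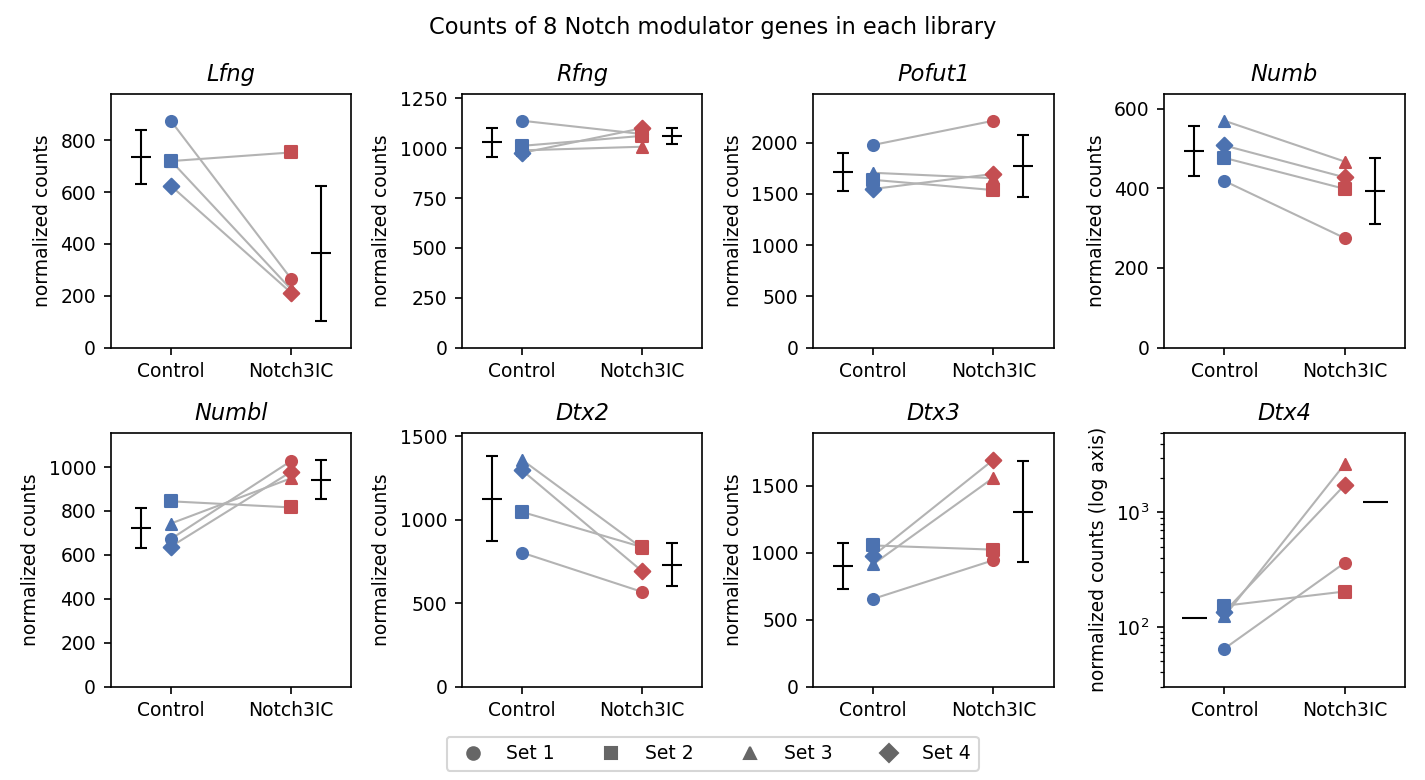
Normalized counts (linear axes from 0, with a log axis for Dtx4) of 8 Notch modulator genes in 4 Control and 4 Notch3IC libraries. Points are libraries, grey lines join the libraries of a set, and black bars are means with SD (mean alone for Dtx4). Notch3IC Set 2 keeps Lfng at 753 where the other Notch3IC libraries lie between 212 and 266, and Dtx4 spans 204 to 2644 in Notch3IC.

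Lfng encodes Lunatic fringe, and it lies on chromosome 5 from 140607320 to 140615545 on the plus strand of GRCm38. Dtx2 lies on the same chromosome from 135994800 to 136032872, also on the plus strand. The promoter windows of these genes are shown because theirs, of the 7 genes matched to a RefSeq promoter (GRCm38.p6), held the core letters TGGGAA that the Notch partner Rbpj is known to recognise. Mfng, Dtx3 and Dtx4 had no matched promoter and were not searched. Both strands were searched from 250 bases before to 50 bases after each start, in 9 windows, since Numb had 3. The letters were present in 2 of the 9 windows, and in 25.6% of 32851 mouse promoters of the same length. The longer form GTGGGAA, which overlaps them, was present in 6.38% of those promoters. Capitals mark TGGGAA or, where it lies on the opposite strand, TTCCCA.
Lfng, chr5:140607091-140607390, plus strand: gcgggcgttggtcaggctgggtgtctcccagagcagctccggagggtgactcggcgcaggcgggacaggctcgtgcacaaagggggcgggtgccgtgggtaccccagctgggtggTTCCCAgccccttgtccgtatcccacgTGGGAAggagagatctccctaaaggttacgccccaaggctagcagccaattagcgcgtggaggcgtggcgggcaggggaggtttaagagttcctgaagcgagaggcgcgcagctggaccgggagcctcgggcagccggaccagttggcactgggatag
Dtx2, chr5:135994550-135994849, plus strand: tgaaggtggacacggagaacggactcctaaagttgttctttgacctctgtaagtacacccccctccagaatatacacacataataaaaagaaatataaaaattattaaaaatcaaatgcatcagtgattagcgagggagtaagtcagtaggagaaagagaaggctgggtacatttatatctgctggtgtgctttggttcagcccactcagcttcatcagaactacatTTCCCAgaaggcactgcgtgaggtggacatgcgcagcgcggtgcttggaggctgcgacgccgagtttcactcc
In Lfng the letters lay 135 bases before the start on the opposite strand and 108 bases before it on the gene's own strand, where the longer form was also met. In Dtx2 they lay 23 bases before the start on the opposite strand. A match of this kind is a description of the letters and says nothing of binding.

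Lfng was lower in Notch3IC in Sets 1, 3 and 4 and not in Set 2. It had 876, 720, 722 and 625 normalized counts in Control Sets 1 to 4, and 266, 753, 225 and 212 in Notch3IC Sets 1 to 4. The Notch3IC libraries of Sets 1, 3 and 4 lay below every Control library, whereas that of Set 2 lay among them, so the groups overlapped. Mean normalized counts were 735 ± 104 for Control and 364 ± 260 for Notch3IC (SD, n = 4 libraries each). The log2 fold change of -1.02 (standard error 0.40, edgeR adjusted p = 0.221) was not called. Adding the matched set as a block gave -1.22 (edgeR adjusted p = 0.0653), and the gene was then called lower. That call was lost without Set 1 (log2 fold change -1.06, edgeR adjusted p = 0.198), Set 3 (-1.07, adjusted p = 0.260) or Set 4 (-1.11, adjusted p = 0.274). Without Set 2 it was -1.66 with condition alone (adjusted p = 0.00505) and -1.65 with the block (edgeR adjusted p = 0.000220). With condition alone it was -0.82, -0.86 and -0.90 without Set 1, 3 or 4 (edgeR adjusted p = 0.376, 0.710 and 0.740). Dropping any single library other than Notch3IC Set 2 gave -1.09 to -0.83 (edgeR adjusted p from 0.286 to 0.471). Only when the Notch3IC library of Set 2, the highest of its group, was dropped alone was it -1.65 (edgeR adjusted p = 0.00112). Whether the lower Notch3 count of that library has a part in this was not tested.

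Rfng, which encodes Radical fringe, and Pofut1, whose product adds the fucose that fringe enzymes extend, differed by less than the spread between libraries. Rfng had 1138, 1012, 990 and 977 normalized counts in Control Sets 1 to 4 and 1071, 1062, 1008 and 1101 in Notch3IC. The libraries of the groups were intermixed, and the log2 fold change was 0.04 (95% interval -0.15 to 0.23, edgeR adjusted p = 0.840), also 0.04 without Set 2. Pofut1 had 1977, 1637, 1706 and 1548 normalized counts in Control and 2213, 1537, 1653 and 1695 in Notch3IC. Its ratio was above 0 in 2 sets and below 0 in the other 2, with a log2 fold change of 0.05 (95% interval -0.26 to 0.35, edgeR adjusted p = 0.899), or 0.09 without Set 2. Mfng, the gene of Manic fringe, had 0 counts in all 8 libraries, which allows up to 3 counts in each, or 0.188 CPM (counts scaled to library size) in the shallowest library.

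The make-up of fringe RNA therefore differed between the sets. Levels of different genes were compared per length, as CPM per kilobase of exon, where CPM is the count scaled to the size of the library. The summed fringe level averaged 30.3 ± 3.01 for Control and 24.5 ± 4.52 for Notch3IC (SD, n = 4 libraries each). Lfng made up 43.3%, 41.4%, 42.0% and 38.9% of it in Control Sets 1 to 4, and 19.8%, 41.3%, 18.2% and 16.1% in Notch3IC Sets 1 to 4. The share in Notch3IC Set 2 thus lay within the range of the Control libraries, and the others lay below that range. With the mean length of a gene's transcripts in place of all its exon bases, the share of Lfng averaged 55.2% in Control and 34.5% in Notch3IC. No test was made of the shares, which repeat the counts above in another form.

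**Figure D2:**
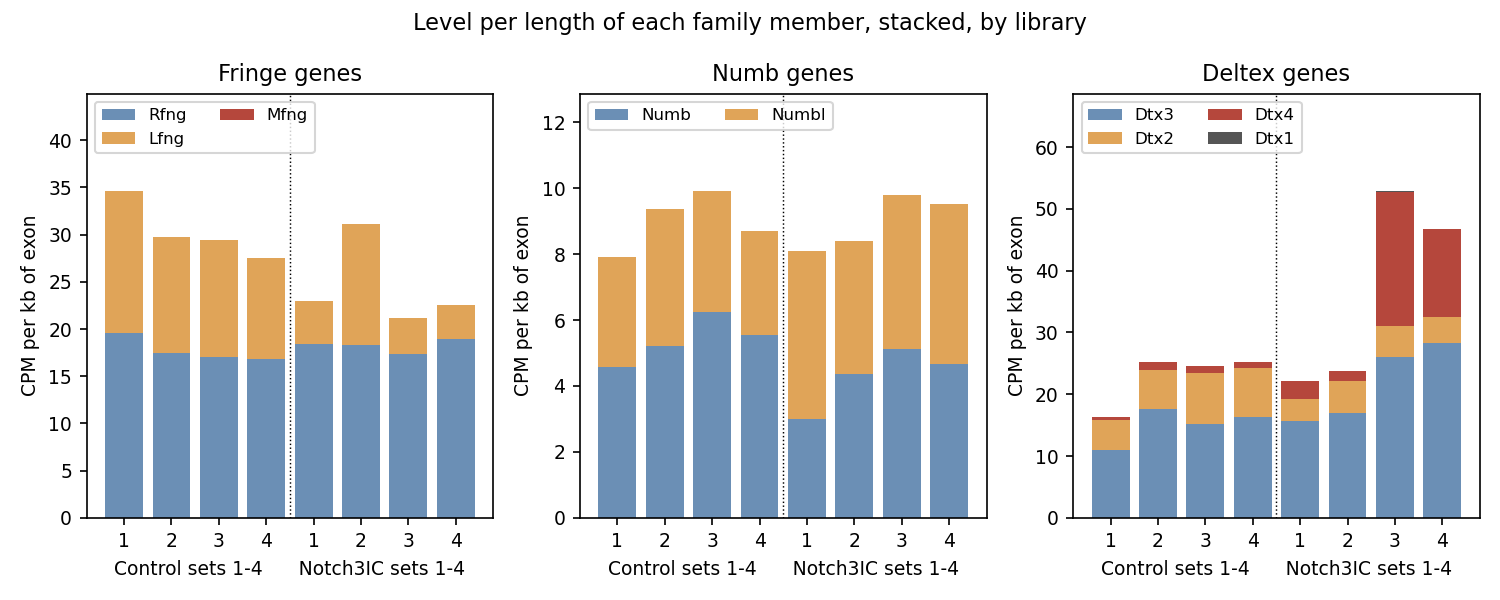
Level per length (CPM per kilobase of exon, linear axis from 0) of fringe, Numb and Deltex genes, stacked by gene, in each library, with Control Sets 1 to 4 left of the dotted line and Notch3IC Sets 1 to 4 right of it. The Lfng segment is narrower in Notch3IC Sets 1, 3 and 4, and the Dtx4 segment is widest in Sets 3 and 4, at 21.7 and 14.2.

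Numb and Numbl had log2 ratios of opposite sign in Sets 1, 3 and 4, all under 1 in size. Numb had 418, 476, 569 and 507 normalized counts in Control Sets 1 to 4 and 275, 399, 467 and 427 in Notch3IC. It was lower in Notch3IC in 4 of 4 sets although the groups overlapped, since Control Set 1 lay below Notch3IC Sets 3 and 4. Numb was not called, with a log2 fold change of -0.33 (standard error 0.18, edgeR adjusted p = 0.367), or -0.35 without Set 2 (adjusted p = 0.442). Numb stood at -0.27, -0.35 or -0.36 without Set 1, Set 3 or Set 4 (edgeR adjusted p = 0.234, 0.728 and 0.841). Another gene, Gm46367, lies over 4.24% of its exon bases on the opposite strand. Numbl, the gene of Numb-like, had 672, 844, 743 and 637 normalized counts in Control and 1028, 816, 949 and 978 in Notch3IC. Notch3IC Set 2 was again the exception, at a log2 ratio of -0.05, where Sets 1, 3 and 4 had 0.61, 0.35 and 0.62. The log2 fold change of Numbl was 0.38 (standard error 0.12, edgeR adjusted p = 0.130), and without Set 2 it was 0.53 (adjusted p = 0.0290), still under the fold-change limit. Without Set 1, Set 3 or Set 4 it was 0.30, 0.39 or 0.31 (edgeR adjusted p = 0.229, 0.557 and 0.697).

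Per length, the sum of Numb and Numbl was 8.97 ± 0.87 CPM per kilobase in Control and 8.95 ± 0.83 in Notch3IC (SD, n = 4 each). Numb made up 58.0%, 55.5%, 62.9% and 63.8% of this sum in Control Sets 1 to 4 and 37.2%, 52.0%, 52.2% and 49.2% in Notch3IC. Each Notch3IC share lay below each Control share, although the counts of each gene overlapped between the groups and neither gene was called. No test was made of this share. The share depends on the gene lengths used, being 40.5% in Control and 29.3% in Notch3IC on average when counts were not divided by length.

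Dtx4 was the Deltex gene with the clearest difference, and its position is chromosome 19, 12466338 to 12501454, on the minus strand of GRCm38. Its product is a ubiquitin ligase. Dtx4 had 64.4, 153, 123 and 135 normalized counts in Control Sets 1 to 4 and 362, 204, 2644 and 1736 in Notch3IC Sets 1 to 4. All Notch3IC libraries lay above all Control libraries, by a wide margin in Sets 3 and 4 and by little in Set 2. Groups that do not overlap were found with the Notch3IC libraries on top for 7.08% of the genes tested and with them below for 3.75%, and Dtx4 was the only one of the 8 genes in either class. Mean normalized counts of Dtx4 were 119 ± 38.2 for Control and 1236 ± 1163 for Notch3IC (SD, n = 4 libraries each), and the fitted fold change was 10.4. The log2 fold change was 3.38 (standard error 0.80, edgeR adjusted p = 0.0591), with within-set ratios of 2.48, 0.41, 4.41 and 3.68 in Sets 1 to 4.

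Whether Dtx4 was called depended on which libraries were kept, while its log2 fold change stayed between 2.70 and 3.87 with condition alone. The call was kept without Set 1 (3.49, adjusted p = 0.0898 in edgeR) and without Set 2 (3.87, adjusted p = 0.0305 in edgeR). With the block it was lost without Set 1 (3.01, edgeR adjusted p = 0.158), Set 3 (2.27, adjusted p = 0.205) or Set 4 (2.52, adjusted p = 0.246). Without Set 3 the log2 fold change was 2.71 and edgeR's adjusted p 0.353, and without Set 4 they were 3.25 and 0.440. Leaving out a single Control library gave log2 fold changes of 3.18, 3.52, 3.40 and 3.45 with adjusted p-values of 0.102, 0.107, 0.167 and 0.179 for Sets 1 to 4 in edgeR. Without the Notch3IC library of Set 3 they were 2.70 and 0.141, and without that of Set 4 they were 3.18 and 0.163, whereas without those of Sets 1 and 2 the call was kept. Over all genes, the 423 called higher became 480, 442, 75 and 99 without Control Sets 1, 2, 3 and 4, 381, 702, 201 and 155 without Notch3IC Sets 1, 2, 3 and 4, and 1 and 0 without the whole of Set 3 and Set 4. The plot of Dtx4 and Lfng against Notch3 shows the 8 libraries side by side.

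**Figure D3:**
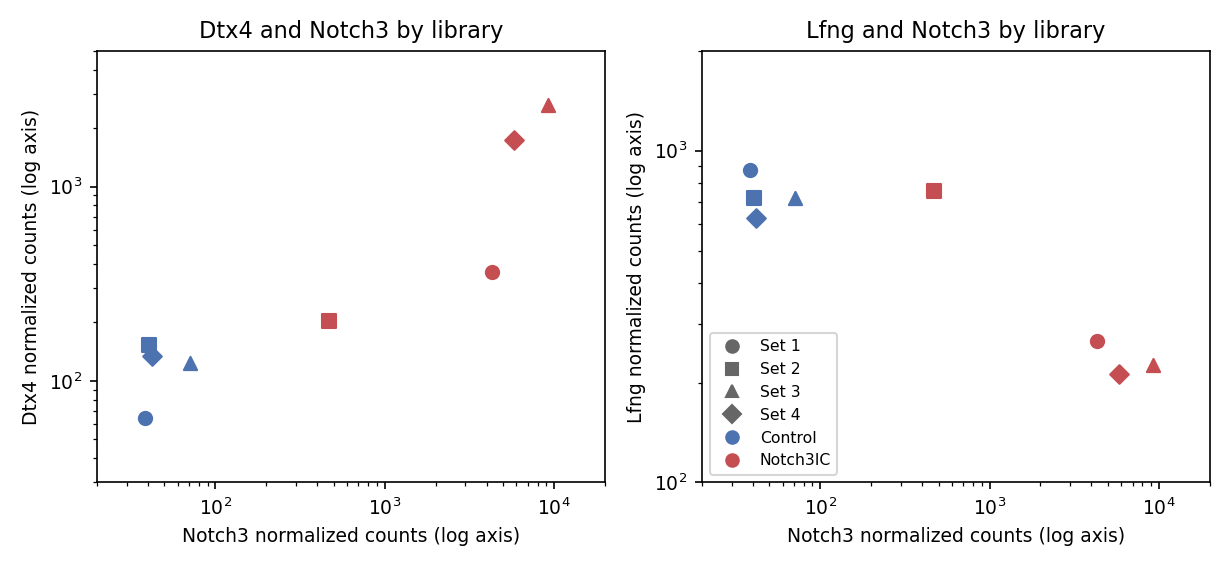
Normalized counts of Dtx4 (left) and Lfng (right) against those of Notch3, each point a library, on log axes, with shape for the set and color for the group. Notch3IC Set 2, at 467 Notch3 counts, lies between the Control libraries and the other Notch3IC libraries, which have 4322 to 9220, and its Dtx4 and Lfng values are next to those of Control.

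Dtx2 and Dtx3 differed in direction. Dtx2, like Dtx4, encodes a Deltex ubiquitin ligase, and it had 802, 1046, 1358 and 1295 normalized counts in Control Sets 1 to 4 and 567, 835, 829 and 690 in Notch3IC. It was lower in Notch3IC in 4 of 4 sets, and the groups overlapped because Control Set 1 was low. Its log2 fold change was -0.62 (standard error 0.19, edgeR adjusted p = 0.128), or -0.73 without Set 2 (adjusted p = 0.139). Without Set 1, Set 3 or Set 4 it was -0.66, -0.59 or -0.52 (edgeR adjusted p = 0.0709, 0.493 and 0.693). DESeq2 gave -0.64 (adjusted p = 0.0382), also under the fold-change limit. Dtx3 encodes a shorter relative, and had 655, 1054, 914 and 978 normalized counts in Control and 944, 1023, 1560 and 1694 in Notch3IC. It was higher in Sets 1, 3 and 4 and not in Set 2, where the log2 ratio was -0.04. The log2 fold change was 0.54 (standard error 0.23, edgeR adjusted p = 0.252), or 0.72 without Set 2 (adjusted p = 0.167). Dtx3 stood at 0.54, 0.45 or 0.43 without Set 1, Set 3 or Set 4 (edgeR adjusted p = 0.173, 0.749 and 0.807). Neither Dtx2 nor Dtx3 was called.

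Dtx1 fell below the expression filter, with 0, 0, 1 and 1 counts in Control Sets 1 to 4 and 1, 0, 15 and 2 in Notch3IC. Only Notch3IC Set 3 rose above the floor of 3 counts. No fold change is given for it, and DESeq2, whose own filter admits it, gave an adjusted p of 0.329.

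The summed Deltex level per length was 16.3, 25.2, 24.5 and 25.3 CPM per kilobase in Control Sets 1 to 4 and 22.2, 23.8, 52.8 and 46.7 in Notch3IC. Dtx4 made up 3.23%, 4.97%, 4.13% and 4.37% of it in Control and 13.4%, 7.02%, 41.0% and 30.5% in Notch3IC. Dtx3 held the largest share in every library with these lengths, from 49.2% to 71.6%. Dtx2 averaged 30.0% in Control and 13.9% in Notch3IC. The shares depend on the annotated length, that of Dtx4 averaging 4.18% in Control and 23.0% in Notch3IC with all exon bases, and 1.73% and 12.1% with the mean length of a gene's transcripts, a setting chosen after the data were seen.

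**Figure D4:**
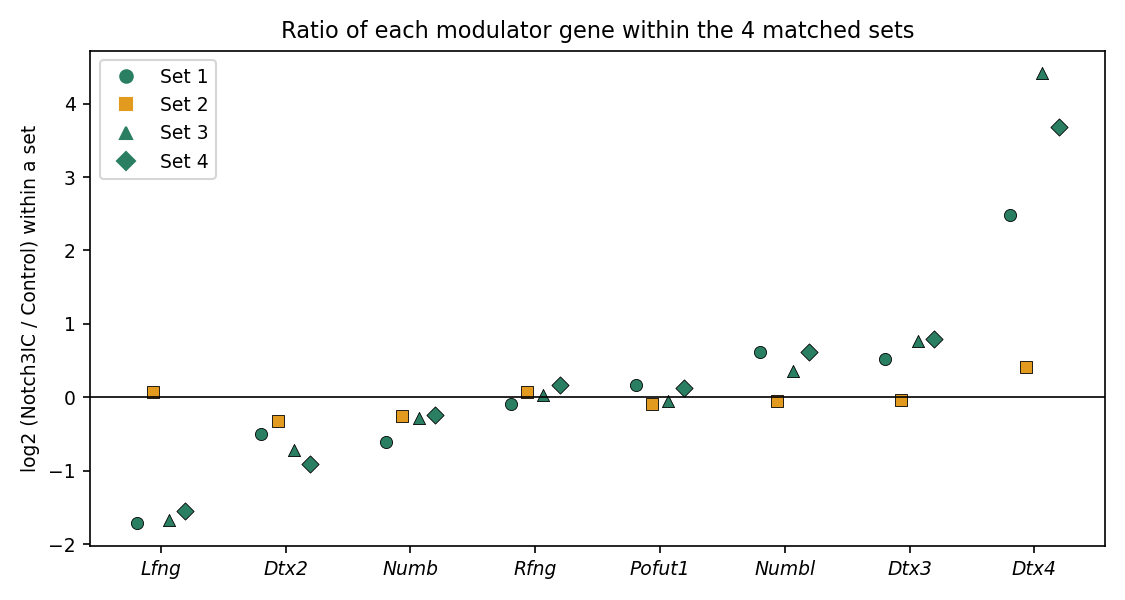
Log2 ratio of Notch3IC to Control normalized counts (pseudocount 0.5) within each set for the 8 genes tested, ordered by their fitted log2 fold change, with Set 2 in orange and no error bars, as each point is 1 pair of libraries. Set 2 lies nearest to 0 for Lfng, Dtx2, Numbl, Dtx3 and Dtx4, at 0.07, -0.32, -0.05, -0.04 and 0.41.

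Under the block and with no limit on the fold change, a setting chosen after the data were seen, 6 of the 8 genes passed an adjusted p of 0.1, among 14.9% of all genes tested in the higher direction and 12.1% in the lower. Numbl (edgeR adjusted p = 0.0883), Dtx3 (0.0703) and Dtx4 (0.0514) were higher, and Lfng (0.0653), Numb (0.0614) and Dtx2 (0.0293) were lower. The log2 fold changes of Numb, Numbl, Dtx2 and Dtx3 in that fit were -0.35, 0.39, -0.61 and 0.52, all under the limit of 1. Leaving out Set 1, Set 3 or Set 4 in that fit left 0 of the 6 genes under an adjusted p of 0.1, and leaving out Set 2 left all 6. Calls over all genes moved the same way. With the fold-change limit kept, the block called 645 higher and 315 lower of all genes tested. These became 46 and 23 without Set 1, 59 and 22 without Set 3, and 129 and 30 without Set 4. On leaving out Set 2 they were 904 and 426.

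Ordered by level per length in Control, the genes were Rfng at 17.7 ± 1.28, Dtx3 at 15.0 ± 2.88, Lfng at 12.6 ± 1.78, Pofut1 at 7.42 ± 0.80, Dtx2 at 6.86 ± 1.55, Numb at 5.39 ± 0.69, Numbl at 3.58 ± 0.45 and Dtx4 at 0.975 ± 0.31 CPM per kilobase (SD, n = 4). The libraries of Rfng and Dtx3, of Dtx3 and Lfng, of Pofut1 and Dtx2, and of Dtx2 and Numb overlapped in this order. In Notch3IC the order began with Dtx3 at 21.7 ± 6.28 and Rfng at 18.3 ± 0.67, followed by Dtx4, which ranged from 1.67 to 21.7, and neighbours in that order overlapped throughout. The order depends on the annotated length of the genes. With the mean length of a gene's transcripts in place of all its exon bases, Pofut1 moved to the second place in both groups and Dtx4 was the lowest of the 8 genes in both. For scale, Notch2, the receptor with the highest level in Control, stood at 25.6 ± 4.32 in Control and 25.2 ± 1.57 in Notch3IC (SD, n = 4), and Notch3 at 0.254 ± 0.08 and 26.3 ± 19.2. The Notch3 level was divided by all 8089 exon bases of the gene, whereas the insert holds codons 1664 to 2318 only. Its value in Notch3IC is therefore too low for the insert and cannot be set against that of Notch2.

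Receptors and ligands on which these proteins act were examined as well, and only some were called. Notch1 (log2 fold change 5.72, edgeR adjusted p = 0.0169) and the ligand gene Jag1 (3.10, adjusted p = 0.0349) were called higher, as were 3.4% of all genes tested. Notch2 was not called, at a log2 fold change of -0.03 (95% interval -0.32 to 0.26). Notch4 (1.35, edgeR adjusted p = 0.150), Jag2 (-0.53, adjusted p = 0.629) and Dll1 (-0.80, adjusted p = 0.531) were not called and had at most 52 counts in any library. Notch4 was called higher with the block (1.31, edgeR adjusted p = 0.0780) and by DESeq2 (1.34, adjusted p = 0.0776).

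The wider machinery around these proteins was examined in 3 lists of 50 genes in all, of which 49 were tested. None was called higher and 1 was called lower, the polarity gene Pard6b, against 3.4% and 0.74% of all genes tested. The plot of fold changes by list shows the 49 genes, whose log2 fold changes ran from -1.51 to 0.62.

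**Figure D5:**
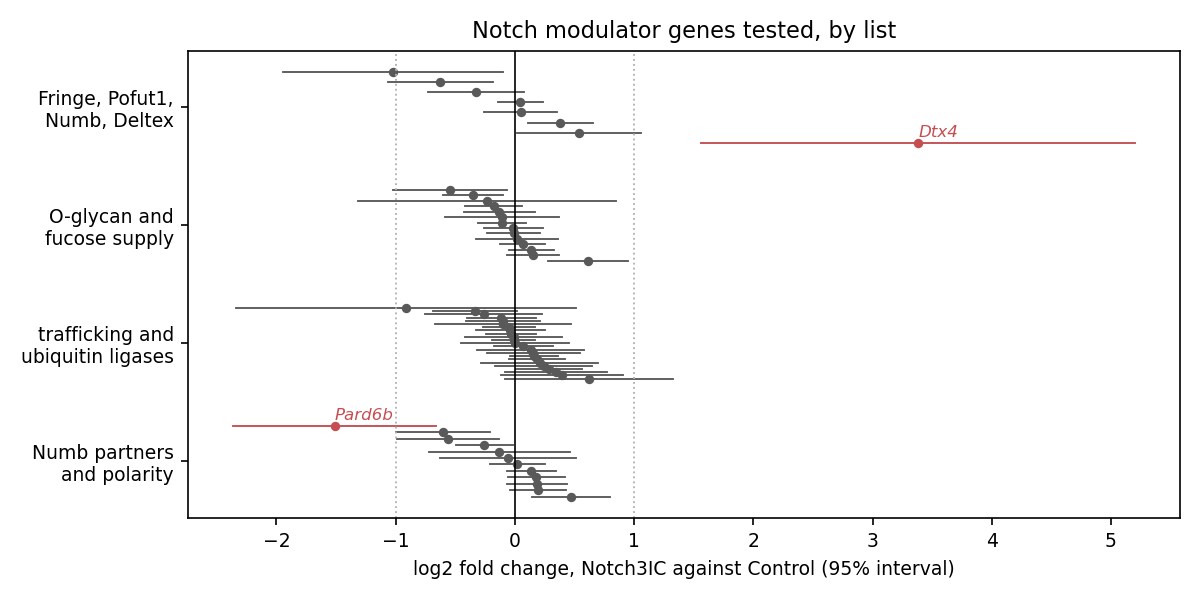
Fitted log2 fold change of Notch3IC against Control (points) with 95% intervals (lines) for the 8 modulator genes tested and the 49 tested genes of the other lists, with dotted lines at -1 and 1. Called genes are red and named, Dtx4 at 3.38 and Pard6b at -1.51.

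The first list held 14 genes for the other O-linked sugars of Notch and for the supply of GDP-fucose. All were tested, none was called in either direction by edgeR or DESeq2, and the median log2 fold change was -0.06. EdgeR's unadjusted p was under 0.05 for 1 gene in the higher direction and 2 in the lower (11.8% and 6.65% of all genes tested). Gmds, whose product makes the precursor of GDP-fucose, had 490, 629, 501 and 446 normalized counts in Control Sets 1 to 4 and 655, 766, 936 and 801 in Notch3IC, with no overlap between the groups. Its log2 fold change was 0.61 (standard error 0.15, edgeR adjusted p = 0.0604), which is under the fold-change limit. Slc35c1, the GDP-fucose transporter gene of the Golgi, had 1243, 1394, 1447 and 1482 normalized counts in Control and 1169, 1222, 928 and 1039 in Notch3IC. Those groups did not overlap either, with a log2 fold change of -0.35 (edgeR adjusted p = 0.129). Of all genes tested, 7.08% had no overlap with Notch3IC above and 3.75% with Notch3IC below. B4galt1, a galactosyltransferase that can extend the fringe-made sugar, had a log2 fold change of -0.54 (edgeR adjusted p = 0.211) and was lower in 4 of 4 sets.

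The second list held 23 genes for trafficking and for other ubiquitin ligases of the pathway. None was called by edgeR or DESeq2, and the median log2 fold change was -0.00. In edgeR, 1 gene had an unadjusted p under 0.05 in the higher direction and 0 in the lower (11.8% and 6.65% of all genes tested). Nedd4, a ubiquitin ligase of the HECT class, had the smallest unadjusted p, with 38101 ± 1764 normalized counts in Control and 46541 ± 5338 in Notch3IC (SD, n = 4) and a log2 fold change of 0.29 (edgeR adjusted p = 0.248). Ap2a2, an adaptor subunit of clathrin-mediated endocytosis, followed at -0.33 (edgeR adjusted p = 0.296), and Arrb1, which encodes a beta-arrestin, at 0.62 (edgeR adjusted p = 0.330). Neurl1a, a ubiquitin ligase gene named after its values were seen, was called lower with the block (log2 fold change -1.18, edgeR adjusted p = 0.0998) but not with condition alone (-0.92, adjusted p = 0.494). Its log2 ratio was 0.22 in Set 2, where Sets 1, 3 and 4 had -1.17, -2.04 and -1.90. With the block, its call was lost without Set 1, Set 3 or Set 4.

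The third list held 13 genes for partners of Numb and for cell polarity, of which Prkcz was below the expression filter, and edgeR's unadjusted p was under 0.05 for 1 gene of 12 in the higher direction and 4 in the lower (11.8% and 6.65% of all genes tested). Pard6b, a subunit of the apical Par complex, had 1050, 975, 1165 and 1253 normalized counts in Control Sets 1 to 4 and 186, 743, 296 and 343 in Notch3IC. The groups did not overlap, which with Notch3IC below held for 3.75% of all genes tested, and Set 2 was again the nearest to Control. The log2 fold change was -1.51 (standard error 0.37, edgeR adjusted p = 0.0676), and without Set 2 it was -2.07 (adjusted p = 0.00745). The call was lost without Set 1 (-1.32, adjusted p = 0.103 in edgeR), Set 3 (-1.37, adjusted p = 0.406) or Set 4 (-1.38, adjusted p = 0.511). It was lost, too, on leaving out Control Set 2 (-1.57, adjusted p = 0.102), Control Set 3 (-1.49, adjusted p = 0.168), Control Set 4 (-1.45, adjusted p = 0.190), Notch3IC Set 3 (-1.40, adjusted p = 0.189) or Notch3IC Set 4 (-1.45, adjusted p = 0.211). Llgl2, a basolateral polarity gene, was lower in 4 of 4 sets without overlap between the groups (log2 fold change -0.60, edgeR adjusted p = 0.104), and Pard6g, a relative of Pard6b, was higher in 4 of 4 sets (0.47, adjusted p = 0.124). The median log2 fold change of the list was -0.02.

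Across the 8 libraries the genes whose log2 CPM followed Dtx4 most closely were Vsig10 (Pearson's r = 0.997), Il17rd (0.995), Fetub (0.995), Gm221 (0.991) and Ctsc (0.988). Those that ran most nearly opposite to it were Flnc (r = -0.995), Exosc7 (-0.989) and Epb4.1l4a (-0.988). Among the modulator genes themselves Dtx4 ran with Dtx3 (r = 0.92) and against Lfng (-0.92), and Numb ran with Dtx2 (0.88). The libraries of a group share their condition and those of a set share their infection, so these coefficients describe the pattern and are not tests.

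Markers of the labelled cell type and of other cells were examined because the lines could differ in identity. Of 13 markers of the ovarian surface epithelium and mesothelium, Wt1 had at least 3138 counts in every library and Vim at least 33372, whereas Epcam had at most 12 counts and Krt7 at most 46. Msln, the mesothelin gene, had 1201, 1325, 3134 and 4572 counts in Control Sets 1 to 4 and 74, 532, 341 and 451 in Notch3IC, and was called lower (log2 fold change -2.60, edgeR adjusted p = 0.0625). Upk1b was also called lower (-2.19, edgeR adjusted p = 0.0762), so 2 of the 11 markers tested were called lower and 0 higher, against 0.74% and 3.4% of all genes tested. The list summed to 117787, 91631, 109632 and 108305 normalized counts in Control Sets 1 to 4 and to 120145, 85348, 80690 and 79035 in Notch3IC Sets 1 to 4, with Vim the most abundant. Within sets, the log2 ratios of Msln were -3.84, -1.02, -3.26 and -3.25 in Sets 1 to 4, and those of Upk1b were -3.40, -0.85, -2.85 and -2.93. Set 2 was thus nearest to 0 for both, as it was for Lfng and Dtx4, and also for Krt19, Upk3b and Lrrn4, which were not called. Vim, the most abundant of the list, had ratios of 0.29, 0.33, 0.63 and 0.65 and was not called (log2 fold change 0.43, edgeR adjusted p = 0.613), nor was Cdh2 (0.08, adjusted p = 0.886). Every other marker tested had a negative log2 fold change. Those of Krt19, Upk3b and Lrrn4 were -2.12, -1.72 and -1.64. Wt1 (-0.80, edgeR adjusted p = 0.283), Krt8 (-0.74, adjusted p = 0.109), Krt18 (-0.43, adjusted p = 0.660) and Cdh1 (-0.48, adjusted p = 0.764) were not called either. The part of these markers in the modulator results was not tested.

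Of the markers of other cells, 5 of 8 leukocyte genes and 3 of 5 endothelial genes had at most 10 counts in every library. Ptprc, the pan-leukocyte gene, had at most 2 counts, and Emr1 and Cd3e had 0 in all 8 libraries. Cd68 had 31 to 150 counts and Lyz2 at most 11. Csf1r had 9, 10, 7 and 9 counts in Control and 36, 10, 22 and 28 in Notch3IC, and it was the 1 gene called higher of the 2 leukocyte genes, among 8 listed, that had enough counts to be tested (log2 fold change 1.52, edgeR adjusted p = 0.0719). The leukocyte list summed to 56.5, 91.9, 90.0 and 128 normalized counts in Control Sets 1 to 4 and to 82.8, 82.1, 87.4 and 121 in Notch3IC Sets 1 to 4, with Cd68 the most abundant. The endothelial genes Cdh5, Tek and Tie1 had at most 3 counts in any library, whereas Pecam1 had 9 to 30 and Kdr 4 to 22. The 5 endothelial genes summed to 22.8, 38.2, 24.9 and 12.7 normalized counts in Control and 50.3, 32.2, 28.5 and 35.5 in Notch3IC, with Pecam1 the most abundant. Cspg4, the 1 gene of 4 mural cell markers with enough counts to be tested, was called higher (log2 fold change 4.20, edgeR adjusted p = 0.0169), with 37, 32, 14 and 19 counts in Control and 553, 106, 434 and 835 in Notch3IC. The 4 mural genes summed to 41.6, 91.9, 19.1 and 19.8 normalized counts in Control and 652, 210, 495 and 766 in Notch3IC. Their part in the modulator results was not tested. With RNA from whole cultures, a change in the number of cells that express a gene and a change in RNA per cell cannot be told apart.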

How the data were processed

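Per the labels and the study's methods, poly-A libraries (Illumina TruSeq) were sequenced as single-end 100-base reads, with TopHat, Cufflinks and DESeq and build mm9 named by the submitters. Tool versions, annotation and strand are not given in the sources used here. The authors deposited whole-number counts per gene symbol, without normalization. The 10 genes and all lists were chosen with earlier results of these data known.

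Counts were tested with edgeR 4.0.16 in R 4.3.3 (TMM, filterByExpr by condition, robust quasi-likelihood F test, condition alone, 8 libraries), adjusted by Benjamini-Hochberg over all genes tested. Standard errors are the size of the log2 fold change divided by the square root of F. The procedure was tested on simulated data. Alternatives included DESeq2 1.42.0 and the set as a replicate block. The sets are matched infections, and deviations of same-set libraries from their group means correlated at 0.82, 0.39, 0.57 and 0.39, against -0.51 to 0.37 otherwise, so the numbers were taken to pair the libraries. The biological coefficient of variation was 26.3%, or 14.1% with the block.

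Named genes are the 10 members, receptors, ligands and targets of Notch, called genes and the 3 smallest p-values of each list, and the nearest correlates of the member with the smallest p. Positions, exon lengths and overlaps are from GENCODE M21 (GRCm38), promoters from RefSeq (GRCm38.p6). Floors of 3 counts cover counting error only.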

Additional observations from a re-analysis of the deposited data

Results flagged for a closer look

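In groups of 4 libraries, a library was singled out when its gap to the nearest other library passed Dixon's 95% critical share of the group's range, which chance gives in about 1 of 20 groups. Of 36 groups examined for the modulator genes and the named genes of the 3 lists, 2 were singled out, and chance gives 1.8. The first was Lfng in Notch3IC Set 2, at 753 normalized counts where Notch3IC Sets 1, 3 and 4 lay between 212 and 266. The second was Nedd4 in Control Set 4, at 35470 normalized counts where Control Sets 1 to 3 lay between 38723 and 39169. Dtx1, which fell below the expression filter, is not counted among the 2. Its Notch3IC Set 3 library stood at 13.8 normalized counts where the other Notch3IC libraries lay between 0 and 1.69, a gap also past that share.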

How the results depend on the processing

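The number of modulator genes called higher, 1 with condition alone, was 0 at an adjusted p under 0.05, without Set 3, without Set 4, and with the replicate block without Set 1, 3 or 4, and 3 with the replicate block and no fold-change limit. It ranged from 0 to 1 when single libraries were left out. The number called lower, 0 with condition alone, was 1 (Lfng) with DESeq2, with the replicate block, without Set 2 and with the block without Set 2, 3 with the block and no fold-change limit, and 0 to 1 with single libraries left out. Of the 50 other modulator genes listed, 1 was called higher without a fold-change limit (Gmds) and 5 with the block and no limit. The number called lower, 1 with condition alone, was 2 with the replicate block and with the block without Set 2, 8 with the block and no limit, and 0 at an adjusted p under 0.05, without Set 1, 3 or 4 and with the block without Set 1, 3 or 4. It was 0 to 1 with single libraries left out. With the block and no limit, 14.9% of all genes tested passed in the higher direction and 12.1% in the lower. The paired fit changed no other call of a named modulator gene at the limits used. Pofut1 turned from 0.05 to -0.00476 without Set 1, to -0.00540 with the block without Set 1, and ranged from -0.0709 to 0.121 with single libraries left out. The block without single sets and without the fold-change limit was added after seeing the data. For these results the cause was not tested, except that fewer libraries and stricter limits were the alternatives themselves.

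Over all genes tested, 423 higher and 92 lower calls with condition alone became 707 and 192 with DESeq2, 645 and 315 with the block, 670 and 229 without Set 2, 1 and 0 without Set 3, and 0 and 0 without Set 4. With single libraries left out they ranged from 75 to 702 and from 8 to 305. At an adjusted p under 0.05 they were 290 and 48, and without a fold-change limit 622 and 210. TMM, RLE, upper-quartile and total scaling and both count filters kept the calls of the modulator genes.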
